A study of Mus musculus with 4 samples.

Results

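CTCF binding strength in brain was compared with that in both forelimb parts of the mouse embryo, over the 52257 regions that held a CTCF peak in each of the 3 libraries. These were 59.6% of the 87734 regions made by joining peaks of the 3 lists that shared at least 1 base, and the 4 lists of the whole study made 121759. The libraries came from chromatin immunoprecipitation and sequencing (ChIP-seq) of wild-type embryos on a B6CBAF1 background at embryonic day E12.5. Brain was a pool of 6 telencephalons, the telencephalon being the part of the forebrain that forms the cerebral cortex. Distal and proximal forelimb were the outer and inner parts of the limb bud, and their labels say that the data came from an earlier study and were analysed again. A posterior trunk library, from the tailbud and adjoining mesoderm of pooled E10 embryos of the same strain, was not used to choose regions. All libraries were made with the same CTCF antibody. Each tissue had 1 library, so no difference has a replicate check and no p-value is given. Tissue, depth and study of origin cannot be told apart between brain and forelimb. A ChIP-seq peak list holds no expression values, so the tissues could not be checked against marker genes.

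CTCF is a zinc-finger protein that binds a long, asymmetric DNA motif. Together with the ring-shaped cohesin complex it halts the extrusion of chromatin loops, and so marks loop anchors and domain borders. Most of its sites are occupied in many tissues, while some are sensitive to DNA methylation and vary between cell types. In mixed tissue, a site bound in fewer cells and a site bound more weakly in every cell cannot be told apart.

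Strength was taken as the authors' summit fold, the pileup of reads at the summit over the local background with 1 added to both. In each library the 52257 folds were ranked, with the strongest at percentile 100, so that the rankings had the same length. The shift of a region is its brain percentile minus the mean of its forelimb percentiles. A region is called brain-high when brain ranked at least 20 points above distal and at least 20 above proximal forelimb, and limb-high in the opposite case.

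Few shifted summits lay in a promoter window, defined as the 250 bases before to 50 bases after a gene start in RefSeq. Stretches of up to 81 bases around the brain summit, from RefSeq on GRCm38.p6 (the assembly of mm10), are shown for 3 brain-high and 3 limb-high promoters among those with the largest shifts, since these are the shifted sites whose letters the reference gives. Each runs 5′ to 3′ on the strand of its gene. Capitals mark the letters that match the core of the CTCF motif, searched on either strand as CCA, NN, AG, NN and GGC in 1 run, with at most 1 mismatch in its 8 fixed letters.
Slc35f4, brain-high, chr14:49525866-49525946, minus strand: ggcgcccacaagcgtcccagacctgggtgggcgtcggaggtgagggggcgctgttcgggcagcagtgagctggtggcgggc
Unc79, brain-high, chr12:102948784-102948864, plus strand: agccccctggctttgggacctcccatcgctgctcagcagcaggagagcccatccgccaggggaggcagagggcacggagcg
Gm33479, brain-high, chr4:52958786-52958866, minus strand: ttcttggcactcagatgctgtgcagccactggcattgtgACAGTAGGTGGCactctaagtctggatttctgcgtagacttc
Gcnt1, limb-high, chr19:17356693-17356773, minus strand: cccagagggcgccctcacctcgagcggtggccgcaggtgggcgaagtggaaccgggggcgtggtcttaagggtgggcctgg
Ednra, limb-high, chr8:77724455-77724535, minus strand: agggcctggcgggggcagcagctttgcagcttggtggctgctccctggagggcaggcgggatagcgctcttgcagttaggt
Sbk2, limb-high, chr7:4964455-4964535, minus strand: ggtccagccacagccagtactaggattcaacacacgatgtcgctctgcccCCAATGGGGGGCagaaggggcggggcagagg
The stretches of Gm33479 and Sbk2 held such a match, and the other four did not. An exact match on either strand occurred in 276 of the 1835 promoter windows that held the brain summit of a kept region, or 15.0%, against 2.43% of all 32851 windows. It was found in 1 of 10 brain-high and 2 of 20 limb-high windows. With 1 mismatch allowed the counts were 5 of 10 and 13 of 20, against 64.5% of the windows with a summit and 30.6% of all windows. A window without a match says only that these letters are not in it.

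CTCF strength was ordered much alike in brain and forelimb, and regions that differed in the same direction against both forelimb parts were a small minority. Brain-high regions numbered 791, or 1.51% of the 52257, and limb-high regions 892, or 1.71%. The rank correlation across regions, a description only, was 0.928 for brain and distal forelimb, 0.922 for brain and proximal forelimb, and 0.948 for the forelimb parts. These points share their libraries, and regions are not independent replicates. Both differences also share the brain library, so a region far from 1 forelimb part tends to lie far from the other.

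The spread between the forelimb libraries gives only a partial scale for these differences. Both came from the earlier study at nearly the same depth. Their spread therefore lacks the difference of study and depth that lies between brain and forelimb. A difference of at least 20 points in either direction occurred at 3825 regions between brain and distal forelimb, or 7.32%, and at 4371 between brain and proximal forelimb, or 8.36%. Distal and proximal forelimb differed by as much at 2417 regions, or 4.63%. At 40 points the same counts were 223, 223 and 24. In these libraries, large differences were more frequent between brain and either forelimb part than between the forelimb parts. Tissue, depth and study of origin cannot be told apart in that contrast.

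**Figure D1:**
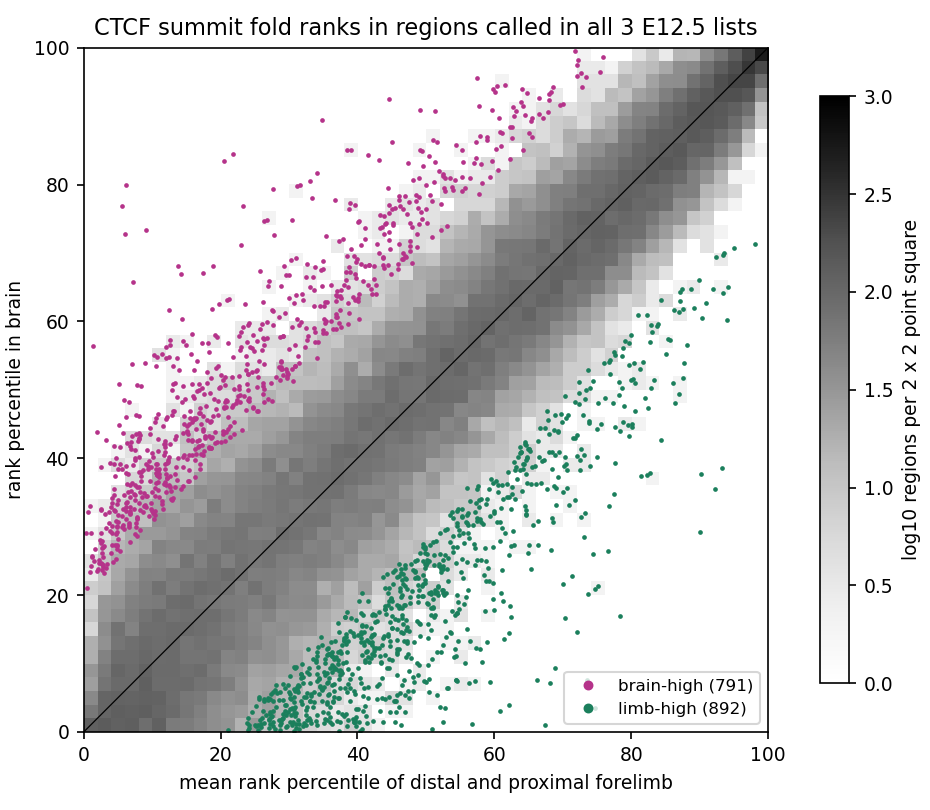
Rank percentile of the CTCF summit fold in brain (vertical) against the mean percentile of distal and proximal forelimb (horizontal) over 52257 regions, with grey for the log10 number of regions per square and a line where both are equal. The 791 brain-high points lie above the line, mostly at low forelimb ranks, and the 892 limb-high points lie below it.

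The share of shifted regions by forelimb rank is a description, since the rule used that rank. Of the regions with a mean forelimb percentile up to 10, 4.29% were brain-high, against 0.857% between 50 and 60. Limb-high regions made up 4.28% between 40 and 50 and 0.295% above 90. Above a mean forelimb percentile of 80 no region can be brain-high, and a region ranked under 20 in either forelimb part cannot be limb-high. Differences of at least 20 points between the forelimb parts made up 11.5% of regions between 10 and 20, 13.8% between 20 and 30, and 0.0566% between 80 and 90. Up to 10 there were 0, as a mean that low leaves no room for such a gap. At the edge of the rule, the last brain-high region was 20.003 points from the nearer forelimb part and the first one outside 19.976. For limb-high regions these values were -20.0002 and -19.995.

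Counting error alone was wide for many of these sites. Fold and p together give back the whole number of reads in each summit pileup, and the exact 95% Poisson interval of that number was turned into an interval of the rank. The brain interval lay wholly above both forelimb intervals at 309 regions, or 0.591%, and wholly below both at 427, or 0.817%. Among brain-high regions this held for 295 (37.3%) and among limb-high regions for 390 (43.7%). These intervals cover counting error only, not variation between embryos or immunoprecipitations. They come from the same reads that chose the shifted regions and make no allowance for that choice. An interval apart from the others is therefore a description. Judged by lowest background, as read totals were not given, brain was the deeper library, at 8.53 reads against 4.23 in distal and 4.58 in proximal forelimb. Median pileups over the kept regions were 125, 71 and 70 reads.

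Regions by the neuronal genes Stmn4, Grm3 and Nova1 were among the 10 largest brain-high shifts. The first, chr14:66424118-66424644, lay 21.9 kb from a small RNA gene, the nearest span. It was 62.7 kb from Stmn4, a neuronal regulator of microtubules and its nearest coding gene. Its fold was 13.2 in brain, 3.06 in distal and 3.92 in proximal forelimb, at percentiles 79.9, 1.69 and 10.5. Brain had 140 reads at the summit (interval 118 to 165), against 15 (8.40 to 24.7) and 22 (13.8 to 33.3) in the forelimb parts. Brain stood far above both forelimb parts, whose counting intervals overlapped each other. Posterior trunk had a fold of 4.06 there, near the forelimb values.

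Grm3, a metabotropic glutamate receptor gene, held the second region, chr5:9703632-9704013. Folds were 12.7 in brain, 3.01 in distal and 3.85 in proximal forelimb, and the summits held 167, 16 and 23 reads. Again brain alone was high, and trunk was at 5.72. Near Nova1, which encodes a neuronal splicing regulator, chr12:46634914-46635414 at a distance of 62.7 kb had folds of 14.9, 6.70 and 5.91. It was the strongest of these 10 regions in brain, at percentile 89.4, while the forelimb parts placed it at 36.8 and 32.8.

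Gli3, the Hedgehog pathway transcription factor that patterns both the digits and the telencephalon, was the limb regulator with the largest shift, in the direction of brain. The region chr13:15556520-15556933 in its span had folds of 10.9 in brain, 3.47 in distal and 3.81 in proximal forelimb. Summit reads were 137 (115 to 162), 20 (12.2 to 30.9) and 24 (15.4 to 35.7), and the rank interval of brain lay above both others. Posterior trunk was at 8.65, nearer to brain by fold.

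The other six leading brain-high regions lay in or near genes with varied roles. Igdcc3, an immunoglobulin superfamily gene, held chr9:65176418-65176867 with folds of 14.0, 4.42 and 5.43 in brain, distal and proximal forelimb. Psmb7, a proteasome subunit gene, held chr2:38621696-38622156 at 13.8, 5.68 and 4.08. Ebpl held chr14:61347263-61347706 at 12.01, 3.43 and 3.68. Within Nek11, a kinase gene, chr9:105376937-105377342 was at 12.1, 3.72 and 3.94. The remaining ones were chr17:56537878-56538278, 13.3 kb from Tincr and 22.9 kb from the coding gene Safb2, at 9.38, 2.85 and 3.04, and chr4:140372887-140373394, 7.34 kb from Gm13016 and 126 kb from the coding gene Igsf21, at 11.2, 4.22 and 4.22. In all 10 the brain rank interval lay above both forelimb intervals.

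**Figure D2:**
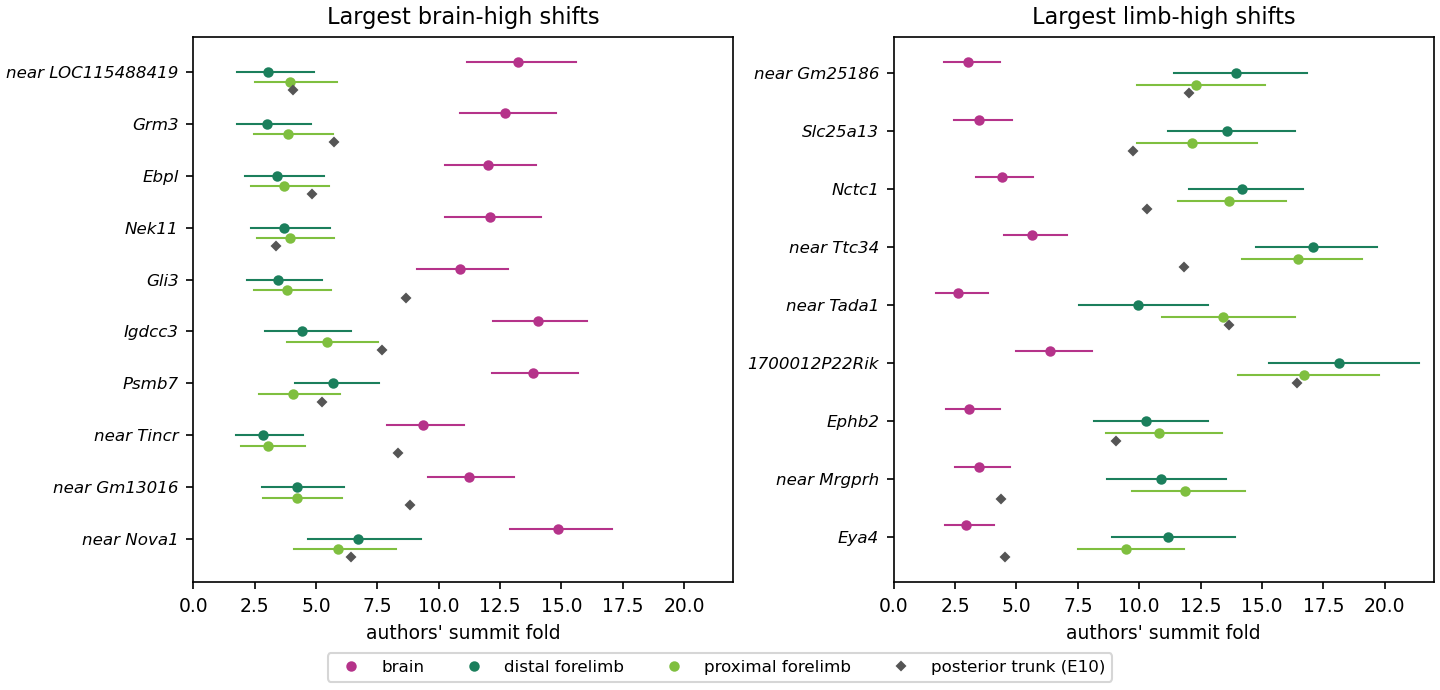
Authors' summit fold in brain, distal forelimb and proximal forelimb, with bars for the exact 95% Poisson interval of the summit reads, and in posterior trunk as diamonds without a bar, for the 10 regions with the largest brain-high shifts (left) and 9 of the 10 with the largest limb-high shifts (right). Brain lies apart from both forelimb parts in each row, and trunk ranges from near the forelimb values (Nek11) to near the brain value (Tincr) on the left. Rows are labelled by the gene span that holds or is nearest to the region, so the regions by Stmn4 and Foxf2 carry names of small RNA genes.

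The largest limb-high shifts included regions by Foxf2, Slc25a13, H19 and Eya4. The first, chr13:31705397-31705836, lay 32.0 kb from a small RNA gene, the nearest span. It was 74.2 kb from Foxf2, a forkhead factor gene of mesenchyme and its nearest coding gene. Its fold was 3.02 in brain, 13.9 in distal and 12.3 in proximal forelimb, at percentiles 3.47, 77.2 and 72.3. Summit reads were 28 (18.6 to 40.5) in brain against 105 (85.9 to 127) and 89 (71.5 to 110), although brain was the deeper library by lowest background. Both forelimb parts were high, brain was low, and trunk was high too, at 12.03.

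Slc25a13, a mitochondrial carrier gene whose neighbourhood is known to hold limb enhancers of Dlx genes, contained chr6:6113748-6114208. Its folds were 3.49 in brain, 13.6 in distal and 12.2 in proximal forelimb, and trunk had 9.77. Ephb2, an ephrin receptor gene, held chr4:136724760-136725167 at 3.08, 10.3 and 10.8, with trunk at 9.05. Eya4, which encodes a transcriptional co-activator of the eyes-absent family, held chr10:23176564-23176946 at 2.96, 11.2 and 9.48. In Eya4 trunk was at 4.52, closer to brain.

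Beside the imprinted gene H19, the non-coding gene Nctc1 held a limb-high region, chr7:142552438-142552907. Folds were 4.39 in brain, 14.2 in distal and 13.7 in proximal forelimb, with 57 (43.2 to 73.9), 149 (126 to 175) and 153 (130 to 179) reads at the summit. The forelimb parts were nearly equal and brain lay below both. Other regions of the leading 10 were 49.9 kb from Ttc34 at 5.65, 17.1 and 16.5, 29.2 kb from Tada1 at 2.62, 9.93 and 13.4, and 3.78 kb from Mrgprh at 3.48, 10.9 and 11.9. One lay in 1700012P22Rik, at 6.38, 18.2 and 16.7. The brain interval lay below both forelimb intervals in each of those described.

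Shifted promoter regions included those of Unc79 and Slc35f4 on the brain side and of Gcnt1 and Ednra on the limb side. Unc79, which encodes a partner of a neuronal sodium leak channel, held a brain-high region with folds of 7.44 in brain, 3.87 in distal and 3.63 in proximal forelimb. Slc35f4, of a solute carrier family, had 10.2, 4.21 and 5.07, and the non-coding gene Gm33479 had 10.5, 6.40 and 5.17. Limb-high were Gcnt1, a glycosyltransferase gene, at 3.15, 8.33 and 7.14, and the promoter of Ednra, the endothelin receptor gene of mesenchyme, at 3.23, 7.41 and 6.73. Sbk2, a kinase gene, had the highest folds of these limb-high promoters, at 8.23, 14.5 and 15.0, and Def6, an exchange factor gene of lymphocytes, was at 3.24, 7.90 and 7.99. With ranks over each whole list Sbk2 came to -19.7 points, short of the threshold. Only 10 brain-high regions (1.26%) and 19 limb-high regions (2.13%) had their brain summit in a promoter window, against 3.18% of all kept regions.

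By gene list, telencephalon factors had the highest share of brain-high regions and Hox genes the highest share of limb-high ones. These shares rest on 6 and 3 regions, and were not taken again with ranks over each whole list. List regions were those with the brain summit in a gene span or within 50 kb of it, and shares are read against 1.51% brain-high and 1.71% limb-high among all regions. Of 121 regions around 29 of the 30 telencephalon patterning genes, 6 were brain-high (4.96%) and 1 was limb-high (0.826%). Over these 121 the median shift was 1.13 points, with quartiles of -3.78 and 9.76, against a median of -0.10 over all regions. The brain-high ones included regions by Emx1, Neurog2, Otx1 and Sp8. Otx1, a homeobox gene of the forebrain, held chr11:21998046-21998470, with folds of 10.8 in brain, 5.22 in distal and 5.59 in proximal forelimb. Sp8, a zinc-finger gene active in both forebrain and limb, had 9.95, 6.43 and 6.46 at chr12:118848852-118849242, where the counting intervals overlapped. Its difference from the nearer forelimb part was 22.5 points by fold but 15.5 ranked by p and 16.3 with brain thinned to the distal forelimb depth.

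Neuronal adhesion and synapse genes leaned towards brain in their median, with shifted regions in both directions. Their 396 regions had a median shift of 1.97 points, and 11 were brain-high (2.78%) and 7 limb-high (1.77%). Grik2, a kainate receptor subunit gene, held a brain-high region, chr10:49784815-49785245, with folds of 11.3 in brain, 5.73 in distal and 6.32 in proximal forelimb. The largest single shift of this list went the other way, at Opcml. That neuronal adhesion gene had 3.46, 9.20 and 9.15 at chr9:28481676-28482068, and Tenm2, a teneurin gene of synapse formation, had 4.09, 10.3 and 7.67 at chr11:36246179-36246509. Brain did not overlap the forelimb parts in Grik2, Opcml or Tenm2.

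Forelimb bud regulators leaned towards the limb, though not more than every other list. Of their 173 regions 7 were limb-high (4.05%) and 4 brain-high (2.31%), with a median shift of -2.35 points. Imprinted and clustered protocadherin genes had lower medians, at -3.26 and -3.80 points. Quartiles overlapped widely, at -7.71 and 3.56 for the forelimb list, -8.40 and 5.42 for imprinted and -8.52 and 4.75 for protocadherin genes. The order of these medians is therefore a description only. Limb-high regions of the forelimb list lay by En1, Hoxd13, Prrx1, Tbx15 and Tbx5, and brain-high ones by Gli3, Hoxa13, Irx5 and Meis1. Hoxa13 and Hoxd13 are also in the Hox list, so these lists share regions. Tbx15, a T-box gene of the limb skeleton, held chr3:99249978-99250437 with folds of 4.89 in brain, 9.01 in distal and 10.9 in proximal forelimb, and with ranks over each whole list it was at -17.7 points. Meis1, which encodes a homeodomain protein of the proximal limb and of brain, held chr11:18996196-18996617 at 7.80, 4.42 and 3.50.

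Skeletal, muscle and blood lists held few shifted regions, in shares above and below the 1.51% brain-high and 1.71% limb-high among all regions. Cartilage and skeletal progenitor genes had 2 brain-high (1.65%) and 1 limb-high (0.826%) of 121, and muscle genes 1 (1.92%) and 2 (3.85%) of 52. Blood and endothelial genes, a marker list for cells that both dissections could hold, had 0 of either kind in 55 regions. Housekeeping genes had 1 of each in 202 regions (0.495%), with a median shift of -0.07 points. Genes of CTCF and cohesin themselves had 0 shifted regions of 63. At the shares of all regions, lists of this size would also hold few or none. Imprinted genes had 2 of each kind in 62 (3.23%), with a median shift of -3.26 points. Clustered protocadherin genes had 1 brain-high (1.67%) and 2 limb-high (3.33%) in 60, with a median shift of -3.80 points. Windows of clustered genes overlap, and each region was counted once per list.

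**Figure D3:**
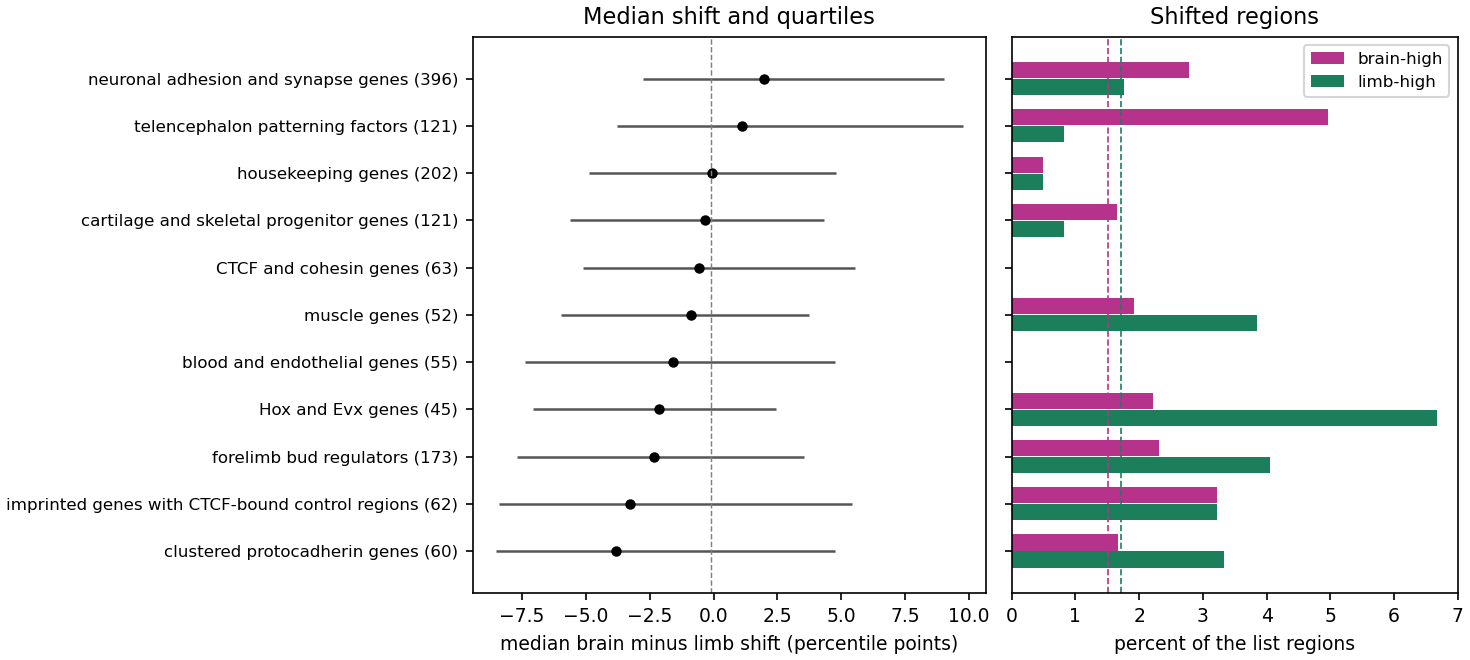
Left, median brain minus limb shift in percentile points (points) and its quartiles over regions (bars) for 11 gene lists, with the number of regions in brackets and a dashed line at the median of all regions. Right, percent of each list's regions that were brain-high or limb-high, with dashed lines at 1.51% and 1.71%, where telencephalon factors reach 4.96% brain-high and Hox and Evx genes 6.67% limb-high.

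Across Hoxd, from Evx2 to Hoxd1, 1 of 10 regions was limb-high and none was brain-high, against 1.71% and 1.51% of all regions. At those shares, sets of 10 or 45 regions would also hold few or none. Evx2, a homeobox gene next to Hoxd13, held the limb-high region, chr2:74655286-74655747. There were 104 summit reads in brain, 178 in distal and 111 in proximal forelimb, although brain was the deeper library by lowest background. Brain percentile 44.0 lay below 83.6 and 73.1, and the brain counting interval lay below both others. The fold of this region was 7.52 in brain and 8.81 in trunk. With ranks over each whole list the difference was -17.5 points, short of the threshold. The region between Evx2 and Hoxd13, chr2:74661509-74662198, was the one most in favour of brain, at 7.64, 4.93 and 6.01, but exceeded proximal forelimb by only 11.2 points. In Hoxd10, chr2:74693958-74694494 was lower in brain than in proximal forelimb by 20.7 points and lower than in distal forelimb by 6.29. At the remaining regions the difference of brain from either forelimb part ran from -8.003 to 3.26 points. Over all Hox and Evx genes, 3 of 45 regions were limb-high (6.67%, against 1.71%) and 1 was brain-high (2.22%, against 1.51%). The brain-high one, chr6:52305827-52306332, lay between Hoxa13 and Evx1 with folds of 13.4, 8.70 and 9.52, and was at 17.4 points when ranked by p.

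Most shifted regions stood alone, but a few loci held several side by side. Of the brain-high regions, 64 (8.09%) lay in 31 runs of neighbouring kept regions shifted the same way, and of the limb-high ones 70 (7.85%) in 31 runs. The next kept region was also brain-high in 4.18% of cases, against 1.51% of all regions, and also limb-high in 4.37%, against 1.71%. The next region was shifted in the opposite direction in 1.52% and 1.009% of cases.

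The longest run held 7 limb-high regions over 456 kb, chr4:144310402-144766187, from the side of Pramel30 over 1700012P22Rik to the Aadacl4fm genes, a family of arylacetamide deacetylase-like genes. Percentiles there were 1.31 to 44.5 in brain, 30.02 to 93.6 in distal and 22.5 to 90.9 in proximal forelimb. Posterior trunk had folds of 8.16 to 16.4, above the brain fold at each of the 7. The brain counting interval lay below both forelimb intervals at 5 of the 7. The regions by Gm13130, Gm25938 and the first in 1700012P22Rik were at -11.1, -19.0 and -18.8 points with ranks over each whole list, and the one in Aadacl4fm4 was at -17.6 points ranked by p and -13.9 with brain thinned. The locus is made of gene families with similar copies, and no source used here says how reads that match several copies were handled. The same holds for a brain-high run of 3 regions by Speer4a, chr5:26006869-26079503, where trunk folds of 9.57 to 11.6 were above those of all E12.5 libraries and the region by Gm10471 was at 17.8 points when ranked by p.

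**Figure D4:**
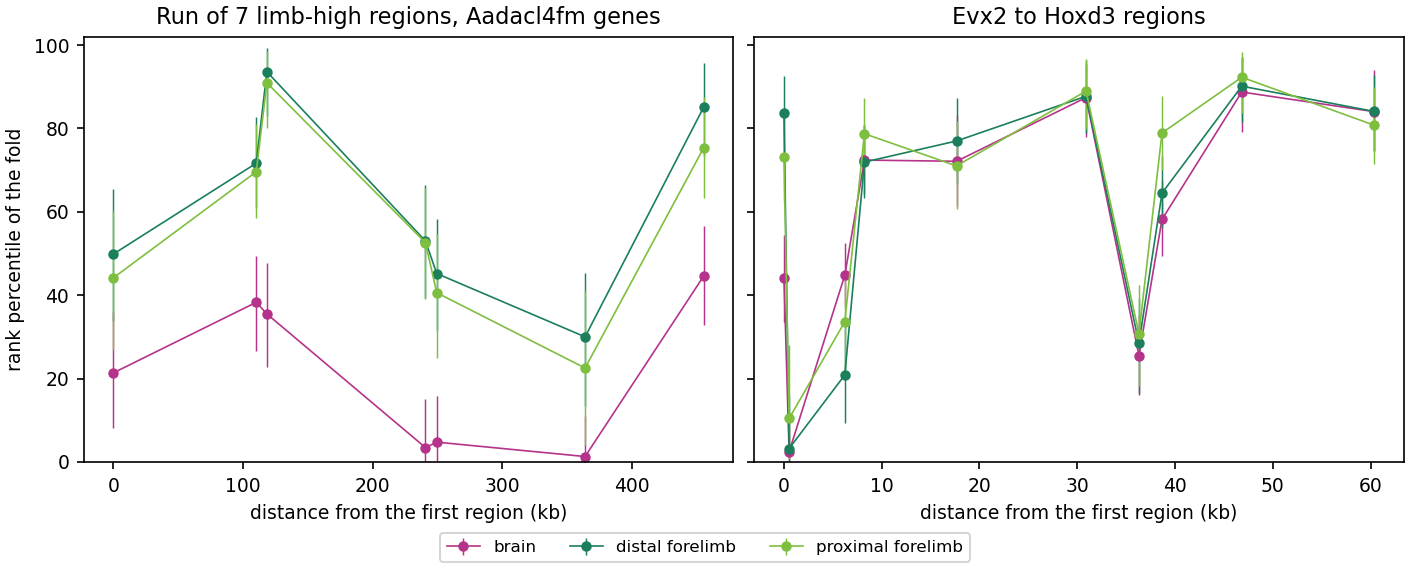
Rank percentile of the CTCF summit fold in brain, distal forelimb and proximal forelimb by distance in kb from the first region, with bars for the exact 95% counting interval, for the run of 7 limb-high regions at the Aadacl4fm genes (left) and the 10 regions from Evx2 to Hoxd3 (right). Brain lies below both forelimb parts by at least 20 points at all 7 regions on the left, and on the right only at the first region.

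Other runs lay by Csmd2, En1, Rora and Syne1. Csmd2 and the adjacent CK137956 held 3 brain-high regions within 20.1 kb, chr4:127969925-127990037, with folds in brain of 12.8, 5.64 and 14.1 against 7.37, 2.68 and 6.89 in distal forelimb. On the side of En1, a homeobox gene of ventral limb ectoderm and midbrain, 3 limb-high regions lay within 356 kb and reached towards Insig2, chr1:120698206-121054199, at folds of 5.82, 6.63 and 8.10 in brain and 10.9, 15.0 and 12.4 in distal forelimb. The first and last of these were at -10.2 and -12.6 points with ranks over each whole list. Rora, a nuclear receptor gene, held 3 limb-high regions in 67.9 kb at 3.25, 6.23 and 2.97 in brain and 7.21, 9.94 and 7.30 in distal forelimb, of which the first and second came to -19.7 and -12.3 points with whole lists. Syne1, a nuclear envelope protein gene, held a pair, and the weaker of them, at 2.47, 8.61 and 8.52, had no peak in trunk.

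Median shifts by gene gave similar loci. Among 23228 genes with at least 4 kept regions in and around their span, the central 95% of medians ran from -8.46 to 8.58 points. CK137956 had the highest median, at 33.6 points, and the miRNA gene Gm51294, by the transmembrane protein gene Tmem132b, had 22.7, with 5 of 5 regions higher in brain. Igf1, the insulin-like growth factor gene, had -22.2 points, with 3 of 4 regions lower in brain, and Gm46117, next to Twist2, a basic helix-loop-helix gene of mesenchyme, had -23.3. Gm36170 on chromosome 9 had the lowest, at -32.4. These genes were picked for extreme medians, so the values are a description.

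Shifted regions differed in reads at the summit more than in local background, a description, since both enter the fold that chose them. With pileups divided by the lowest background of each library, the brain level was a median 1.67 times the forelimb mean at brain-high regions, 0.456 times at limb-high ones and 0.837 times over all. Local background treated in the same way gave 1.07, 0.887 and 0.944. Summits of the 3 libraries lay more than 50 bases apart at 13.9% of brain-high regions, against 7.33% of all and 7.06% of limb-high ones. Brain-high regions had median summit reads of 33 in distal and 34 in proximal forelimb, against 71 and 70 over all. Limb-high ones had 50 in brain, against 125. Whether read number bears on summit position was not tested. Regions in a gene span made up 58.2% of brain-high, 57.4% of limb-high and 59.7% of all regions. Those within 1 kb of a gene end were 11.8%, 13.9% and 15.8%, and those over 100 kb from any gene 2.91%, 2.13% and 1.55%.

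The X chromosome stood apart from the autosomes as a whole rather than through shifted regions. Its 1484 regions had a median shift of 2.71 points, whereas the medians of the 19 autosomes ran from -0.57 to 0.31. Brain-high regions were 1.89% and limb-high ones 1.55% on X. The median fold on X was 9.12 in brain against 8.39 on autosomes, 8.75 against 8.63 in distal and 8.31 against 8.20 in proximal forelimb, and 10.96 against 9.68 in posterior trunk. Background relative to the library's lowest value was 1.21 on X and 1.61 on autosomes in brain, and 1.23 and 1.71 in distal forelimb. The sex of the pooled embryos is not in the labels, and its part in the result was not tested. The X value was 1.098 points above the autosomes when regions were ranked by p, against 2.89 by fold.

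**Figure D5:**
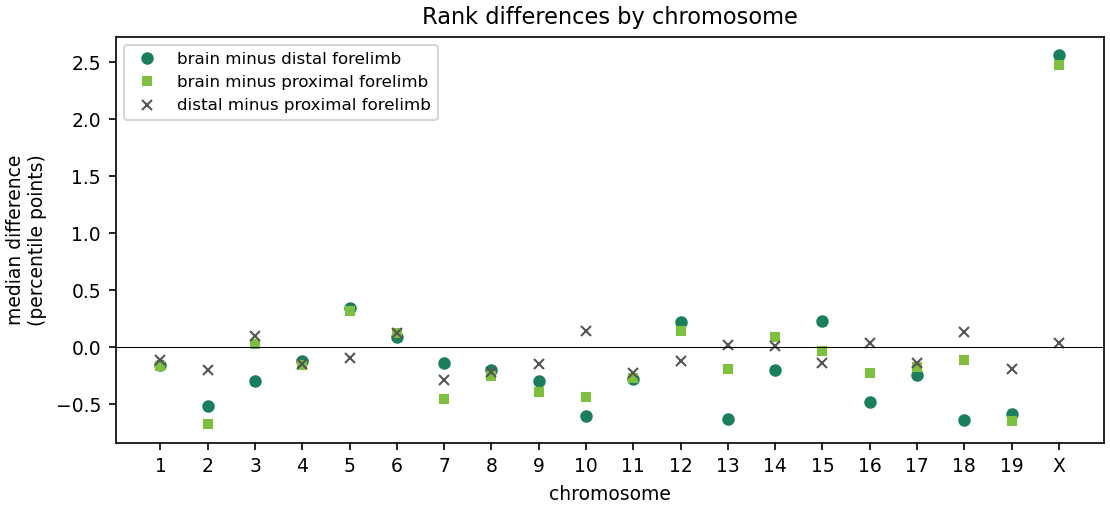
Median rank difference in percentile points over kept regions by chromosome, for brain minus distal forelimb (circles), brain minus proximal forelimb (squares) and distal minus proximal forelimb (crosses). Both brain differences are near 2.5 points on X, at 2.56 and 2.48, while the difference between the forelimb parts there is 0.03.

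Posterior trunk, which had no part in the choice of regions, had a median rank between those of brain and forelimb at both kinds of shifted region. A trunk peak was present at 789 of 791 brain-high and 876 of 892 limb-high regions, against 99.3% of all kept regions. With all 4 libraries ranked over the regions they shared, trunk was a median 17.9 points above the forelimb mean at brain-high regions and 9.38 points below brain. At limb-high regions it was lower than the forelimb mean by 14.9 points in the median and 14.5 points above brain. Over all regions its median differences were -0.53 and -0.62. Trunk was nearer to brain than to the forelimb mean at 58.6% of brain-high, 49.9% of limb-high and 57.5% of all regions. Regions chosen for distant values in brain and forelimb leave a further library in between by selection, so these medians do not show a likeness to either tissue. Trunk also shares its study of origin and greater depth with brain.

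The balance of both directions depended on how ranks were taken. Ranked over each whole list instead of over the shared regions, brain-high regions numbered 1886 and limb-high ones 353, so that brain-high regions were 84.2% of the shifted ones instead of 47.0%. The brain list is longer at its weak end, with 74127 peaks against 64793 and 63873, and under that ranking the median shift of all regions was 4.02 points. Of the 892 limb-high regions 289 kept their call in that ranking, and of the 791 brain-high ones 743.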

How the data were processed

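CTCF ChIP-seq was measured in 1 library each of brain, distal forelimb, proximal forelimb and posterior trunk, grouped by the labelled tissue. Per the submitters' processing notes, MACS2 2.1.1.20160309, SAMtools 1.9, Bowtie2 2.3.5 and cutadapt 1.16 were used with build mm10. No source used here gives their options, any input control or the treatment of repeated reads. The authors deposited a narrowPeak list per library. Each deposited row gives the fold (a ratio with a pseudocount of 1), −log10 p-value and −log10 q-value at the summit, a whole-number score and the summit offset. The lowest deposited −log10 q was 1.30 to 1.31 in each list.

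Rows with the same interval were collapsed to the strongest summit, and chromosomes 1 to 19, X and Y were used with 1-based coordinates. Peaks of the 3 E12.5 lists sharing at least 1 base were joined, and the strongest fold per list was kept. Pileup and background were recovered from fold and p to within 0.00031 in −log10 p. The lists give no read totals, so absolute depth is unknown, and the lowest background gave brain a depth of 2.02 and proximal forelimb 1.08 relative to distal forelimb. Gene positions were the spans of RefSeq GRCm38.p6, and all 240 listed symbols matched. A region was named by the gene whose span holds its brain summit, otherwise by the nearest span, and the nearest coding gene is added at some of the non-coding ones. The first brain-high and first limb-high regions are named in the text by their nearest coding genes, Stmn4 and Foxf2, although a small RNA gene was nearer.

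Named were the 10 regions each way with the largest difference from the nearer forelimb library, up to 3 shifted regions per gene list, all regions from Evx2 to Hoxd1, up to 5 runs, 5 genes by median and 5 promoters each way, of which the text gives part. One region and 1 gene name that these rules select are not reported here. Regions, lists and tests were chosen with earlier results of these data known. Methods were tested on simulated data. Computation was in matplotlib 3.10.9, pandas 2.3.3, scipy 1.17.1 and numpy 2.4.6 under Python 3.11.15. Alternatives changed the ranking measure, the ranking set, the threshold, the overlap, the q filter, depth and the forelimb library.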

Additional observations from a re-analysis of the deposited data

Results flagged for a closer look

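Sequences outside chromosomes 1 to 19, X and Y entered no comparison, and 61 regions there were called in all 3 E12.5 lists. Of these, 3 were on the mitochondrial sequence and 58 on unplaced or unlocalised sequences. They drew attention as signal in data that the comparisons did not use, with no control library to set them against.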

How the results depend on the processing

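Ranking by p, a fold without the pseudocount, summits within 50 bases, single peaks, a −log10 q of at least 5 and brain thinned to distal forelimb depth kept both shifted counts within 1.5 times, at 575 to 1077 brain-high and 779 to 1124 limb-high regions. Of the 791 brain-high regions, 528 were also called by p and 600 after thinning, and of the 892 limb-high ones 682 and 707. Ranks over each whole list gave 1886 and 353. A threshold of 10 points gave 4183 and 3994, and one of 30 points 156 and 221. Against proximal forelimb only the counts were 2240 and 2131, and against distal forelimb only 1904 and 1921. Ranked by p, the median trunk minus forelimb difference was 14.1 points at brain-high and -17.2 at limb-high regions. The X chromosome exceeded the autosomes by 2.89 points, and by 1.098 by p, 2.02 without the pseudocount and 1.899 after thinning, in alternatives chosen after seeing the data. So was the motif with 1 mismatch, which 10062 of all promoter windows held, with 1183 of those with a summit, 5 brain-high and 13 limb-high ones. Of 90 named shifted regions none changed direction in 781 values, and 30 were under 20 points in at least 1 alternative. By the rule, values against a single forelimb part cannot change direction. The other alternatives use the same reads, so the lack of a change is no independent check. Except where a longer list, a lower or higher threshold or a single forelimb library sets the count, the cause was not tested. Summits with few reads limit the precision at weak sites. No paired analysis was possible because no tissue had a further library.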
